A study of Homo sapiens with 9 samples.

Results

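Well-known long noncoding RNAs (lncRNAs) were followed in A549 cells depleted of Cyclin K, namely the 10 genes MALAT1, NEAT1, TUG1, NORAD, GAS5, SNHG1, SNHG5, SNHG8, SNHG12 and EPB41L4A-AS1. They were chosen by gene symbol, and all 10 were found among the 31073 reference genes or joined genes of the processed tables. All 10 also passed the filter on low values, which left 21044 genes for testing. The 3 groups were A549 cells, an established human lung adenocarcinoma cell line, transfected for 48 h with a scrambled siRNA, with siCyclin K#1 or with siCyclin K#2, each with 3 libraries. The siRNAs were delivered with Lipofectamine RNAiMAX, both siCyclin K siRNAs target the Cyclin K gene CCNK at different sequences, and a single cell line limits the model to that line. The series text describes the libraries of a group as independent samples without saying whether they came from separate cultures, so the p-values measure only the spread between these libraries.

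Long noncoding RNAs are transcribed by RNA polymerase II but encode no known functional protein. MALAT1 resides in nuclear speckles, NEAT1 is the scaffold of paraspeckles, and NORAD is a cytoplasmic RNA that binds PUMILIO proteins through many copies of one short element. GAS5 and the small nucleolar RNA host genes (SNHGs) carry small nucleolar RNAs (snoRNAs) in their introns, and the spliced exons of GAS5 and of several SNHGs are degraded by nonsense-mediated decay when they are translated. Cyclin K is the partner of CDK12 and CDK13, kinases of the RNA polymerase II tail.

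The PUMILIO element of NORAD is shown first because NORAD was the member whose level moved in opposite directions with the 2 siRNAs. NORAD is a single exon of 5339 bases on the minus strand at chr20:36045622-36050960 (GRCh38, GENCODE 29). Its transcript held 15 matches to TGTANATA (N is any base, read on the transcript strand only, overlaps allowed), of which 10 were TGTATATA and 4 were TGTAAATA, between transcript positions 761 and 4599. Of 2130 GENCODE transcripts of like length, 42.8% held at least 1 match and 0.141% held as many as NORAD, with a median of 0 and a highest count of 16. The other members held 6 (NEAT1), 2 (TUG1), 2 (EPB41L4A-AS1), 1 (SNHG1) or 0 matches (MALAT1, GAS5, SNHG5, SNHG8 and SNHG12). The windows of 4 sites follow, 5′ to 3′ on the minus strand with the match in capitals, and a match is a description of letters rather than a tested binding site.
NORAD site 2, chr20:36049806-36049829: cactactgTGTATATAgttgacaa
NORAD site 11, chr20:36047974-36047997: ccctactgTGTATATAgcggacaa
NORAD site 3, chr20:36049705-36049728: tcacatttTGTAAATAcctttttg
NORAD site 6, chr20:36049121-36049144: taccacttTGTAAATAtctttttg

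The host RNAs carry snoRNAs of 2 classes, and an example of each class is shown for the hosts that moved and the hosts that did not pass the test. C/D box snoRNAs guide 2′-O-methylation and H/ACA box snoRNAs guide pseudouridylation of other RNAs. By RefSeq positions, GAS5 held 10 C/D box snoRNAs and 1 H/ACA box snoRNA, SNHG1 held 8 of the C/D class and SNHG5 held 2. SNHG8 and EPB41L4A-AS1 each held 1 H/ACA box snoRNA, and SNHG12 held 3 together with 1 of the C/D class. In the sequences (GRCh38, GENCODE 29) capitals mark the C box and the D box, or the ACA box near the 3′ end.
SNORD27 in SNHG1, chr11:62855012-62855083, minus strand: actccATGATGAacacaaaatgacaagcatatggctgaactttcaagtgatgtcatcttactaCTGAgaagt
SNORD50B in SNHG5, chr6:85677589-85677658, minus strand: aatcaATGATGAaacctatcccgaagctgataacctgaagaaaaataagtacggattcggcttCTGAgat
SNORA24 in SNHG8, chr4:118279190-118279320, plus strand: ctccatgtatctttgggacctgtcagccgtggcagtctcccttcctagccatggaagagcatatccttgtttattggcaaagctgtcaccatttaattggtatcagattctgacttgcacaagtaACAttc
SNORA13 in EPB41L4A-AS1, chr5:112161485-112161617, plus strand: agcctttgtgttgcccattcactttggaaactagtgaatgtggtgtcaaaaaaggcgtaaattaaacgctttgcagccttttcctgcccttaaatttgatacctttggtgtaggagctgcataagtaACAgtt

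In the same annotation the nuclear RNAs MALAT1 (chr11:65497688-65506516) and NEAT1 (chr11:65422774-65445540) lie beside each other on the plus strand, and TUG1 is at chr22:30969245-30979395 on the plus strand. Of the host RNAs, GAS5 (chr1:173863900-173868882), SNHG1 (chr11:62851988-62855914), SNHG5 (chr6:85660950-85678748) and SNHG12 (chr1:28578538-28583132) are on the minus strand. SNHG8 (chr4:118278709-118279823) and EPB41L4A-AS1 (chr5:112160526-112164276) are on the plus strand.

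Values are FPKM, fragments scaled by transcript length and by the total of the library, so levels can be set beside each other per length. CCNK itself was at 7.02 ± 0.107 FPKM (SD, n = 3) with scrambled siRNA and fell to 11.5% and 12.0% of that mean with siCyclin K#1 and siCyclin K#2. The libraries held an estimated 31333777 to 33768082 reads, recovered from the steps of the FPKM values. Of the epithelial markers KRT8, KRT18 and CDH1 were above 1 FPKM in the scrambled group while KRT19 and EPCAM were at or near 0, and the leukocyte marker PTPRC, the endothelial marker PECAM1 and the fibroblast marker COL1A2 were at or near 0 in every group. The second fibroblast marker, COL1A1, was at 2.03, 14.0 and 3.19 FPKM in the scrambled, siCyclin K#1 and siCyclin K#2 groups, and its part in the results was not tested. The rows of NEAT1, TUG1, SNHG1, SNHG8, SNHG12 and EPB41L4A-AS1 also carried small RNA genes, mostly snoRNAs or RNA family entries, and the reads of the 2 kinds cannot be told apart there. Whether the libraries were poly(A)-selected or kept strand information is not given in the sources used here.

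In the scrambled group the order of mean FPKM was NORAD (75.1 ± 1.64), SNHG5 (48.6 ± 1.59), GAS5 (26.3 ± 0.766), SNHG1 (22.6 ± 3.09), SNHG8 (12.1 ± 2.08), TUG1 (8.37 ± 3.23), MALAT1 (7.00 ± 3.76), EPB41L4A-AS1 (3.73 ± 0.931), SNHG12 (2.85 ± 0.166) and NEAT1 (1.29 ± 1.24), each as mean ± SD with n = 3. The ranges of the first 5 did not overlap one another, whereas each neighboring pair from SNHG8 downward did. Among tested genes NORAD stood at the 98.2 percentile of scrambled levels, SNHG5 at 97.1, GAS5 at 93.9 and SNHG1 at 92.6. NEAT1 was at the 50.8 percentile, SNHG12 at 62.0 and EPB41L4A-AS1 at 66.6, so that not all members were abundant in these libraries.

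With siCyclin K#1, NORAD, GAS5, SNHG1 and SNHG5 fell to between 45.2% and 51.0% of their scrambled means, and no member was called higher. With siCyclin K#2, GAS5, SNHG1 and SNHG5 fell again, to 54.3%, 67.9% and 53.5%, whereas NORAD rose to 152.2% of its scrambled mean. MALAT1, NEAT1, TUG1, SNHG8, SNHG12 and EPB41L4A-AS1 did not pass the test in either comparison. Each call is an adjusted p under 0.05 in limma on log2(FPKM + 0.1), with Benjamini-Hochberg adjustment over all tested genes, and fold changes are on that scale, which understates changes of low genes. In these bulk samples, fewer cells that express a gene and less of its RNA per cell cannot be told apart.

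With siCyclin K#1, 4 of 10 members were called lower (18.1% of all tested genes were) and 0 were called higher (26.8% of all tested genes). With siCyclin K#2, 3 of 10 were called lower (15.2% of all tested genes) and 1 was called higher (19.8%). The study's methods set the thresholds at 3-fold and at p under 0.01, and by these, applied here to the unadjusted p, no member passed with siCyclin K#1 (4.66% of all tested genes in either direction) or with siCyclin K#2 (1.94%). The median log2 fold change of the members was -0.34 with siCyclin K#1, where all tested genes had a median of 0.10, and 0.18 with siCyclin K#2, where all tested genes had a median of 0.01. The median of all genes with siCyclin K#1 went from 0.10 to -0.0017 when the libraries were rescaled by median ratios, a shift that every siCyclin K#1 value shares. In 4 of 10 members the siCyclin K#1 libraries lay wholly below the scrambled libraries (21.5% of all tested genes) and in 0 wholly above (32.0%). The siCyclin K#2 libraries lay wholly below in 3 members (21.3% of all tested genes) and wholly above in 4 (25.5%). Both comparisons share their 3 scrambled libraries.

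**Figure D1:**
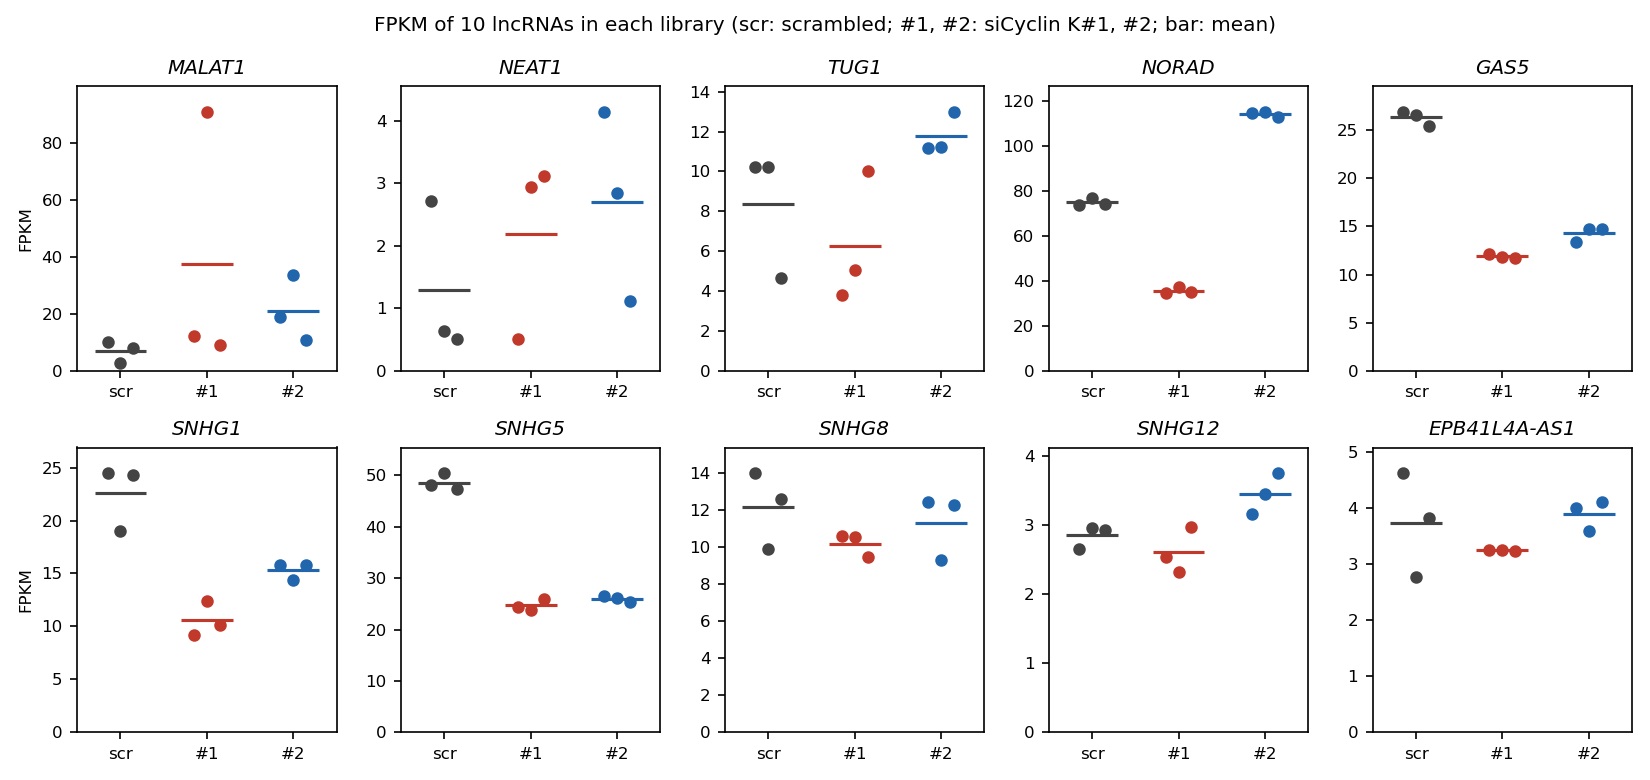
FPKM of the 10 lncRNAs in each of the 9 libraries, with 1 panel per gene, 1 point per library, a bar at the group mean and every axis starting at 0. NORAD is lower with siCyclin K#1 (mean 35.7) and higher with siCyclin K#2 (mean 114) than with scrambled siRNA (mean 75.1), GAS5, SNHG1 and SNHG5 are lower with both, and the points of MALAT1, NEAT1 and TUG1 are widely spread within groups.

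NORAD, which holds PUMILIO proteins in the cytoplasm and is linked to genome stability, gave tight values within each group. It was at 74.0, 77.0 and 74.4 FPKM with scrambled siRNA, at 34.8, 37.2 and 35.1 with siCyclin K#1, and at 115, 115 and 113 with siCyclin K#2. The 3 groups did not overlap, and the scrambled libraries lay between the 2 siRNA groups. The log2 fold change against scrambled was -1.07 with siCyclin K#1 (SE 0.03, limma adjusted p = 6.3e-08) and 0.61 with siCyclin K#2 (SE 0.03, limma adjusted p = 2.6e-06). The difference between the 2 siRNAs was itself -1.68 (SE 0.03, limma adjusted p = 6.1e-08), and NORAD was the only member past both the fold change of 3 and the p of 0.01 in any comparison. These values rest on 6010 to 20428 estimated reads per library. Over both siRNA groups, the exact two-sided permutation test of 6 siCyclin K libraries against 3 scrambled libraries gave p = 0.952 for NORAD. That test pools groups that moved in opposite directions, so it cannot show whether NORAD changed with either siRNA.

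Seed matches of the siRNAs were counted because a guide can lower transcripts that pair with its bases 2 to 8, taking the guide's 5′ end opposite the last printed base of each published sense sequence. The NORAD transcript held 0 matches to the siCyclin K#1 seed site (GTGATAA) and 1 match to the siCyclin K#2 seed site (TACAGGT), which 23.7% and 28.0% of transcripts of like length hold. The siCyclin K#1 site was present 1 time in MALAT1, TUG1 and SNHG8, none of which was called with that siRNA, and the siCyclin K#2 site was present 2 times in SNHG1, 2 times in NEAT1 and 1 time in EPB41L4A-AS1. Of the 4 members with a siCyclin K#2 site, SNHG1 was called lower and NORAD higher with that siRNA, and NEAT1 and EPB41L4A-AS1 were not called. GAS5, SNHG5 and SNHG12 held neither. A match is a description, and effects of the siRNAs on other transcripts were not tested.

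GAS5, SNHG5 and SNHG1, which carry mainly C/D box snoRNAs, were lower in every siCyclin K library than in every scrambled library. GAS5, whose exons are a known target of nonsense-mediated decay, was at 26.9, 26.6 and 25.4 FPKM with scrambled siRNA, at 12.1, 11.8 and 11.7 with siCyclin K#1 and at 13.4, 14.7 and 14.7 with siCyclin K#2. The groups did not overlap, and siCyclin K#1 gave the lowest values. Its log2 fold changes were -1.14 (SE 0.05, limma adjusted p = 2.6e-07) and -0.88 (SE 0.05, limma adjusted p = 2.1e-06). The difference between the siRNAs was -0.26 (95% interval -0.37 to -0.16, limma adjusted p = 0.00298).

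SNHG5 was at 48.1, 50.4 and 47.3 FPKM with scrambled siRNA, at 24.5, 23.9 and 25.9 with siCyclin K#1 and at 26.5, 26.2 and 25.3 with siCyclin K#2. Both siRNA groups lay far under the scrambled group and overlapped each other. The log2 fold changes were -0.97 (SE 0.04, limma adjusted p = 3.2e-07) and -0.90 (SE 0.04, limma adjusted p = 9.9e-07), and the difference of -0.07 between the siRNAs had a 95% interval of -0.17 to 0.02. SNHG1 was at 24.4, 19.02 and 24.3 FPKM with scrambled siRNA, at 9.20, 12.4 and 10.2 with siCyclin K#1 and at 15.8, 14.3 and 15.8 with siCyclin K#2. Its groups did not overlap, with siCyclin K#1 lowest and scrambled highest. The log2 fold changes were -1.09 (SE 0.13, limma adjusted p = 0.000125) and -0.55 (SE 0.13, limma adjusted p = 0.0091), and the siRNAs differed by -0.54 (95% interval -0.83 to -0.25, limma adjusted p = 0.0121). The exact two-sided permutation test of 6 siCyclin K libraries against 3 scrambled libraries gave p = 0.0238 for each of GAS5, SNHG5 and SNHG1, the smallest value that design allows. These p-values are unadjusted, among 10 such tests.

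SNHG8, SNHG12 and EPB41L4A-AS1, which carry mainly H/ACA box snoRNAs, were not called against scrambled siRNA. SNHG8 was at 14.0, 9.87 and 12.6 FPKM with scrambled siRNA, at 10.6, 10.5 and 9.43 with siCyclin K#1 and at 12.4, 9.26 and 12.2 with siCyclin K#2, so all groups overlapped. The 95% intervals of its log2 fold changes were -0.57 to 0.09 and -0.43 to 0.23, neither of which reaches the fall of GAS5. EPB41L4A-AS1 was at 4.62, 2.76 and 3.82 FPKM with scrambled siRNA, at 3.25, 3.26 and 3.23 with siCyclin K#1 and at 4.01, 3.59 and 4.12 with siCyclin K#2. The scrambled libraries held both the lowest and the highest value, and the 95% intervals were -0.53 to 0.20 and -0.27 to 0.45. Without the low second scrambled library, EPB41L4A-AS1 was called lower with siCyclin K#1 (log2 fold change -0.36, limma adjusted p = 0.0206).

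SNHG12 was at 2.66, 2.96 and 2.93 FPKM with scrambled siRNA, at 2.54, 2.32 and 2.97 with siCyclin K#1 and at 3.16, 3.45 and 3.75 with siCyclin K#2. The siCyclin K#2 libraries were all above the others, while scrambled and siCyclin K#1 overlapped. Against scrambled the log2 difference was -0.13 with siCyclin K#1 (limma adjusted p = 0.377) and 0.27 with siCyclin K#2 (limma adjusted p = 0.0848). The direct difference between the siRNAs was -0.39 (95% interval -0.63 to -0.15, limma adjusted p = 0.022). That call was lost without the first siCyclin K#1 library (limma adjusted p = 0.0627), the second siCyclin K#1 library (limma adjusted p = 0.072), the second siCyclin K#2 library (limma adjusted p = 0.0592) or the third siCyclin K#2 library (limma adjusted p = 0.0777).

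**Figure D2:**
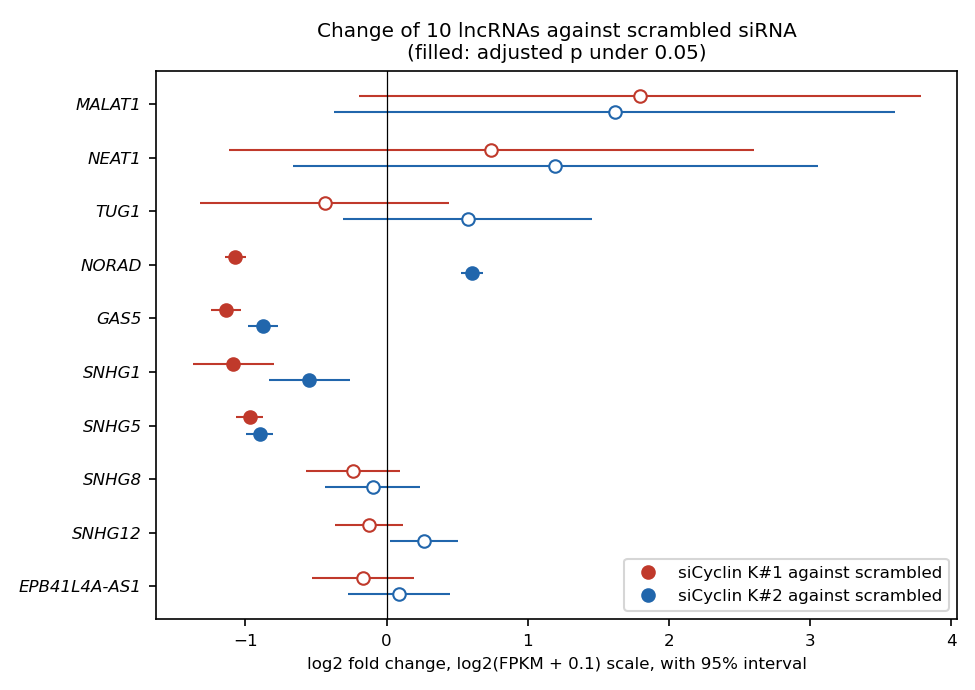
Log2 fold change of each lncRNA against scrambled siRNA on the log2(FPKM + 0.1) scale, with 95% intervals from limma and 3 libraries per group. Filled points have an adjusted p under 0.05. NORAD lies at -1.07 with siCyclin K#1 and at 0.61 with siCyclin K#2, with both intervals clear of 0.

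The division of the 6 member hosts by snoRNA class was noticed after their values were seen, and was therefore set beside the other hosts as a description. Among all 12 hosts of mainly C/D box snoRNAs, 10 were called lower with siCyclin K#1 and 9 with siCyclin K#2, with median log2 fold changes of -0.65 and -0.52. Among all 10 hosts of mainly H/ACA box snoRNAs, 5 and 2 were called lower, with medians of -0.43 and -0.28. Without the members, 7 and 6 of 9 C/D box hosts were lower (medians -0.51 and -0.39) and 5 and 2 of 7 H/ACA box hosts were lower (medians -0.75 and -0.28). The H/ACA hosts outside the members thus had the lower median with siCyclin K#1 and the C/D hosts the lower median with siCyclin K#2. No host of either class was called higher, where 26.8% and 19.8% of all tested genes were. Called lower were 18.1% of all tested genes with siCyclin K#1 and 15.2% with siCyclin K#2. The SNHG3 row, shared with the protein-coding gene RCC1, is counted among the H/ACA box hosts called lower with siCyclin K#1.

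**Figure D3:**
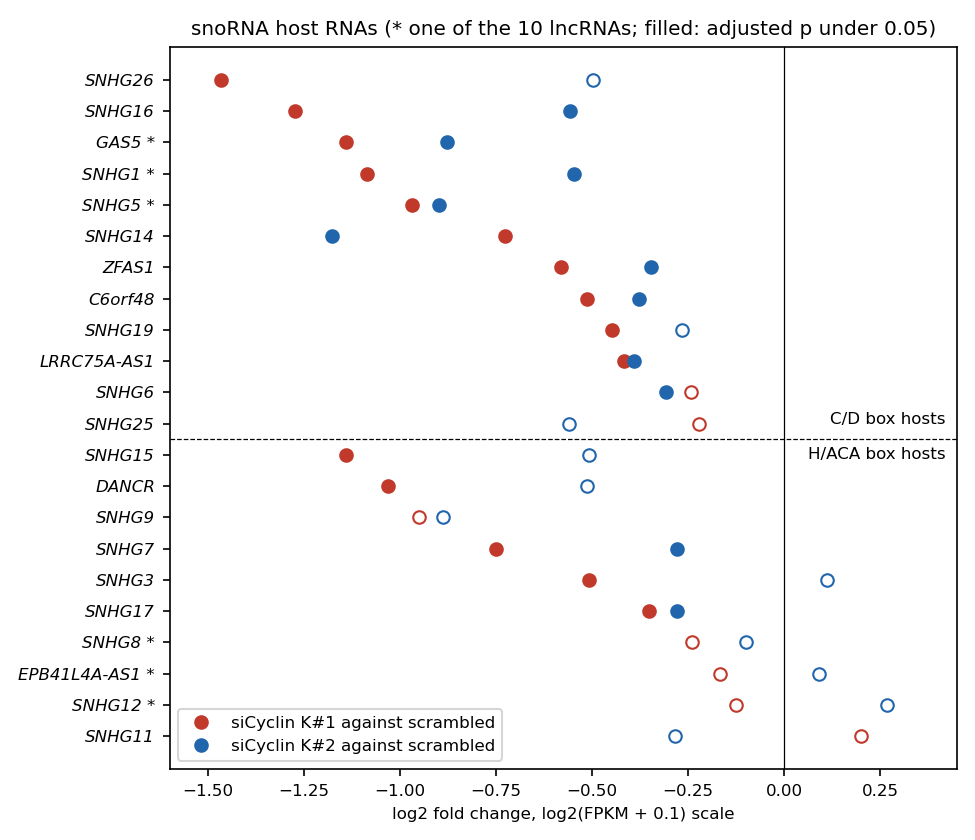
Log2 fold change of 22 snoRNA host RNAs against scrambled siRNA on the log2(FPKM + 0.1) scale, in 2 blocks for hosts of mainly C/D box and mainly H/ACA box snoRNAs, with members starred and filled points at an adjusted p under 0.05. The starred C/D box hosts lie between -1.14 and -0.55, and the starred H/ACA box hosts lie between -0.24 and 0.27.

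MALAT1, NEAT1 and TUG1 varied between replicates far more than most genes of like level. MALAT1 was at 10.2, 2.86 and 7.94 FPKM with scrambled siRNA, at 12.2, 90.8 and 9.05 with siCyclin K#1 and at 18.9, 33.7 and 10.9 with siCyclin K#2. The second siCyclin K#1 library stood far above the rest, the second scrambled library was lowest, and the siCyclin K#2 group was wholly above the scrambled group. From lowest to highest library the level differed 31.8-fold, on 804 to 25122 estimated reads. The log2 difference from scrambled was 1.79 with siCyclin K#1 (95% interval -0.20 to 3.78, limma adjusted p = 0.133) and 1.62 with siCyclin K#2 (95% interval -0.37 to 3.61, limma adjusted p = 0.197), and the first was 0.76 without the second siCyclin K#1 library. The exact two-sided permutation test of 6 against 3 libraries gave p = 0.0476 for MALAT1, unadjusted, among 10 such tests.

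NEAT1, the paraspeckle scaffold, was at 2.72, 0.64 and 0.51 FPKM with scrambled siRNA, at 0.50, 2.93 and 3.12 with siCyclin K#1 and at 4.14, 2.84 and 1.12 with siCyclin K#2. Each group held at least 1 low library and the groups overlapped. Its log2 differences of 0.74 and 1.19 had 95% intervals of -1.12 to 2.60 and -0.67 to 3.05. The first ranged from 0.32 without the third to 1.53 without the first siCyclin K#1 library, and the second from 0.78 without the third to 1.88 without the first scrambled library. TUG1, a spliced lncRNA annotated at a bidirectional promoter, was at 10.2, 10.2 and 4.64 FPKM with scrambled siRNA, at 3.80, 5.04 and 10.0 with siCyclin K#1 and at 11.2, 11.2 and 13.0 with siCyclin K#2. The siCyclin K#2 libraries were the highest, but the third scrambled library and the first and second siCyclin K#1 libraries were all low. The log2 differences from scrambled were -0.44 (95% interval -1.32 to 0.44) and 0.57 (95% interval -0.31 to 1.45). The first ranged from -0.83 without the third to -0.15 without the first siCyclin K#1 library, and the second from 0.20 without the third to 0.76 without the first scrambled library. The difference between the siRNAs, -1.01 (limma adjusted p = 0.085), was called without the third siCyclin K#1 library (-1.41, limma adjusted p = 0.0182) and without the third scrambled library (limma adjusted p = 0.0436).

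The SD within groups on the log2(FPKM + 0.1) scale was 1.27 for MALAT1, where the 2772 genes within 1 log2 unit of its level had a median SD of 0.07. It was 1.18 for NEAT1 and 0.56 for TUG1, against medians of 0.15 and 0.09. The 3 lay at the 99.9, 99.7 and 98.1 percentiles of genes of like level. NORAD, with an SD of 0.04, was at the 23.7 percentile, GAS5 at the 29.2 percentile and SNHG5 at the 31.6 percentile, so the same libraries gave close replicates for those RNAs. The libraries that were high or low were only in part the same for MALAT1, NEAT1 and TUG1. The first siCyclin K#1 library was the lowest of its group for NEAT1 and TUG1 but not for MALAT1. The third siCyclin K#2 library was the lowest of its group for MALAT1 and NEAT1 and the highest for TUG1. No cause of this spread was tested.

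**Figure D4:**
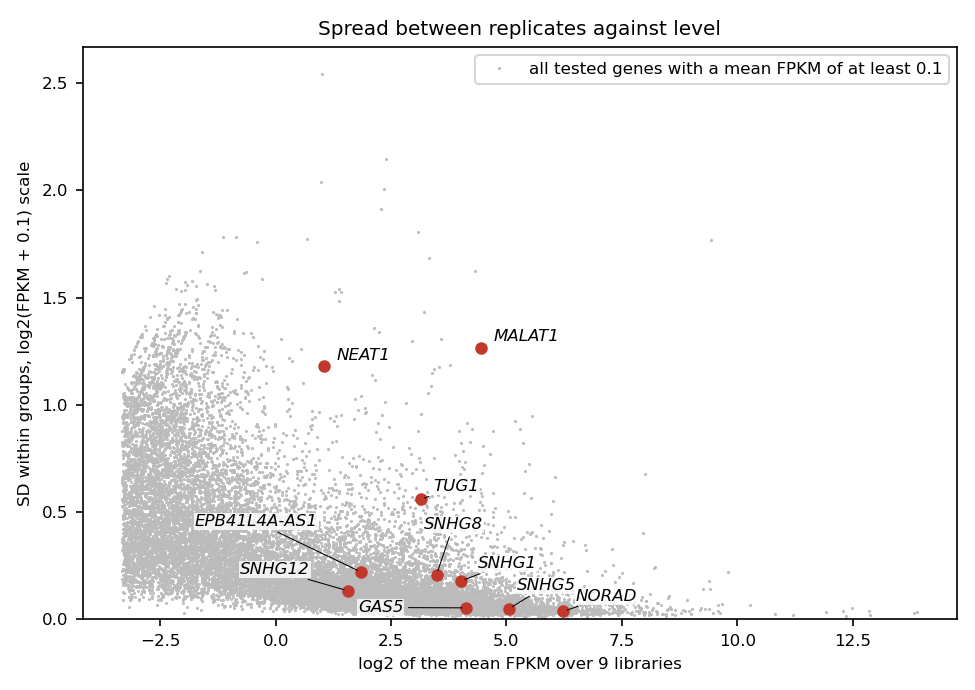
SD within groups on the log2(FPKM + 0.1) scale against log2 of the mean FPKM over 9 libraries, for tested genes of 0.1 FPKM or more on average in gray and the 10 lncRNAs in red. MALAT1 (SD 1.27) and NEAT1 (SD 1.18) lie above nearly all genes of like level, and NORAD (SD 0.04), GAS5 and SNHG5 lie in the dense band at the bottom.

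Between the 2 siRNAs, 4 of 10 members (NORAD, GAS5, SNHG1 and SNHG12) were called with siCyclin K#1 below siCyclin K#2 (12.3% of all tested genes), and 0 were called in the other direction (17.1% of all tested genes). One member, NORAD, passed the fold change of 3 (1.53% of all tested genes). The median difference of the members was -0.33 and that of all tested genes was 0.08. In 6 of 10 members the siCyclin K#1 libraries lay wholly below the siCyclin K#2 libraries, which 17.3% of all tested genes also did, the others being TUG1 and EPB41L4A-AS1.

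Of 19 further snoRNA host RNAs on tested rows, 12 were lower and 0 higher with siCyclin K#1, and 8 were lower and 0 higher with siCyclin K#2, with median log2 fold changes of -0.51 and -0.38. The other 7 and 11 were not called, among them SNHG11 at 0.20 with siCyclin K#1 and SNHG10 at 0.27 with siCyclin K#2, both named after their values were seen. SNHG16 fell by 1.27 and 0.56 on the log2 scale (limma adjusted p = 6.5e-08 and 1.1e-05), and SNHG14 fell by 0.73 and 1.18. SNHG26 and SNHG15 fell by 1.47 and 1.14 with siCyclin K#1 and were not called with siCyclin K#2. SNHG3 shares its row with the protein-coding gene RCC1, so its value is not its own. That row is among the 12 lower with siCyclin K#1, and its value is the median of -0.51 given above.

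Of 13 other well-known lncRNAs, 6 were higher and 2 lower with siCyclin K#1 and 3 were higher and 1 lower with siCyclin K#2, with medians of 0.14 and 0.11. TERC, the telomerase RNA, on a row with a second small RNA entry, rose by 2.70 log2 units with siCyclin K#1 and had a difference of 0.41 that was not called with siCyclin K#2. MIR22HG, a microRNA host, fell by 1.67 with siCyclin K#1 (difference -0.58 with siCyclin K#2, not called), DLEU2, another microRNA host, fell by 0.77 and 0.65, and DLEU1 rose by 0.66 with siCyclin K#1 (difference 0.41 with siCyclin K#2, not called).

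Genes for proteins that work with these RNAs were called in both directions at the RNA level, and no protein was measured. For this and the following lists, 26.8% of all tested genes were called higher and 18.1% lower with siCyclin K#1. With siCyclin K#2 these shares were 19.8% and 15.2%, and several list counts lie near them. Of 20 genes for paraspeckle proteins, 5 were higher and 7 lower with siCyclin K#1 and 7 were higher and 4 lower with siCyclin K#2, with medians of -0.09 and 0.0017. PSPC1, the gene of a core paraspeckle protein, fell by 0.71 and 0.88 on the log2 scale, while the RNA-binding protein genes TAF15 (0.88 and 1.02) and HNRNPH3 (0.91 and 0.80) rose, and RBM14, on a row with RBM4, fell by 1.05 and 0.78. Of 32 genes for nuclear speckle proteins, 15 were lower and 4 higher with siCyclin K#1 and 12 were lower and 2 higher with siCyclin K#2, with medians of -0.18 and -0.19. The splicing factor gene U2AF2 fell by 0.90 and 0.76, PNN by 0.79 and 0.57 and the cyclophilin gene PPIG by 0.77 and 0.69, whereas the kinase gene PRPF4B fell by 0.88 with siCyclin K#1 and had a difference of -0.05 with siCyclin K#2.

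MALAT1's 3′ end is made by RNase P, and of 13 genes for RNase P subunits, RNase Z and the triple-helix binder METTL16, 6 were lower and 1 higher with siCyclin K#1 and 3 were lower and 2 higher with siCyclin K#2 (medians -0.26 and -0.11). The RNase P subunit genes POP4 (-0.98 and -0.08, the second not called) and RPP14, on a row with HTD2 (-0.98 and -0.70), and the RNase Z gene ELAC2 (-0.46 and -0.29) were among the lower, and RPP25 was lower with siCyclin K#2 (-0.67). The subunit gene POP5 rose by 0.32 and 0.26, and POP1 fell by 0.32 with siCyclin K#1 and rose by 0.41 with siCyclin K#2. Of 4 genes for NORAD binding proteins, 3 were higher and 1 lower with siCyclin K#1 and 2 were higher with siCyclin K#2 (medians 0.24 and 0.16). PUM2, a PUMILIO gene, fell by 0.20 with siCyclin K#1 (limma adjusted p = 0.00225) and had a difference of -0.06 with siCyclin K#2, which was not called. KHDRBS1 (0.38 and 0.28) and RBMX (0.17 and 0.25) rose with both siRNAs, and RBMX is also counted among the paraspeckle genes.

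Nonsense-mediated decay, which degrades several host RNAs, was represented by 18 genes, of which 9 were lower and 4 higher with siCyclin K#1 and 4 were lower and 4 higher with siCyclin K#2 (medians -0.19 and -0.04). The exon junction gene CASC3 rose by 0.93 and 0.95 and the core factor UPF2 by 0.44 and 0.61, while UPF3B fell by 0.77 with siCyclin K#1 and was not called with siCyclin K#2. Of 16 genes for snoRNP core and assembly proteins, 7 were lower and 3 higher with siCyclin K#1 and 6 were lower and 7 higher with siCyclin K#2 (medians -0.11 and -0.04). The C/D box assembly genes ZNHIT6 and PIH1D1 fell by 1.20 and 0.76 and by 0.87 and 0.54, and the C/D box core gene NOP56, on a row with SNORA51, fell by 0.73 and 0.33. The H/ACA box core gene NHP2 fell by 1.14 with siCyclin K#1 and had a difference of -0.12 with siCyclin K#2, which was not called. Called higher with both siRNAs were DKC1, on a row with snoRNA genes (0.27 and 0.59), SHQ1 (0.52 and 0.37) and RUVBL2 (0.33 and 0.52). FBL (0.20), NOP10 (0.28), NUFIP1 (0.33) and ZNHIT3 (0.27) were called higher with siCyclin K#2 but not with siCyclin K#1.

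Genes beside the members were compared as a description. EPB41L1, which codes for a membrane skeleton protein and lies 40544 bases from NORAD on the opposite strand, rose from 1.29 ± 0.568 to 6.69 ± 0.820 FPKM with siCyclin K#1 and 6.40 ± 0.787 with siCyclin K#2 (log2 fold changes 2.35 and 2.29, limma adjusted p = 6.3e-05 and 0.000118). NORAD's own changes of -1.07 and 0.61 thus had opposite signs beside a neighbor that rose with both siRNAs. SLC3A2, an amino acid transporter subunit that starts 188 bases from SNHG1 on the opposite strand, fell by 0.26 and rose by 0.37 on the log2 scale. PRSS12, a protease gene 215 bases from SNHG8, rose by 0.79 and 0.55, and MORC2, 947 bases from TUG1, fell by 0.40 and 0.41.

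Of the genes that overlap GAS5 on the opposite strand, ZBTB37 fell by 0.64 and 0.46 (limma adjusted p = 0.00123 and 0.0107). The antisense RNA GAS5-AS1 was at 1.37, 1.09 and 0.74 FPKM on average in the scrambled, siCyclin K#1 and siCyclin K#2 groups. It was called lower with siCyclin K#2 (-0.80, limma adjusted p = 0.0107) and not with siCyclin K#1 (-0.31, limma adjusted p = 0.224). TRNAU1AP overlaps SNHG12 and fell by 0.77 and 0.51, unlike SNHG12. Reads of overlapping genes on opposite strands cannot be told apart where strand was not kept. At these levels the antisense genes are far below GAS5, with ZBTB37 at 1.73 FPKM on average with scrambled siRNA. Reads from GAS5 may therefore be mixed into the values of ZBTB37 and GAS5-AS1, and their part in those falls was not tested. TRNAU1AP, at 2.90 FPKM on average with scrambled siRNA, was near SNHG12 at 2.85, so the reads of that pair may be mixed. FRMD8, the gene to the left of NEAT1 and MALAT1, fell by 0.42 and 0.27. Beside TUG1, SMTN fell by 0.78 and rose by 0.35. WDR74, left of SNHG1 on a row with RNU2-2P, fell by 0.36 with siCyclin K#1, and NREP, left of EPB41L4A-AS1, rose by 0.53 with siCyclin K#1, neither being called with siCyclin K#2. SYNCRIP, left of SNHG5, fell by 0.21 and 0.13, and CNBD2 beside NORAD and TAF12 beside SNHG12 were not called.

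The genes whose pattern over the 9 libraries was nearest to that of 3 members were found by the root mean square distance of centered log2 values, among 11242 genes whose mean was 1 FPKM or more. For GAS5 these were MRPL20 (on a row with RN7SL657P) at 0.06, HMGA1 at 0.06 and ZDBF2 at 0.06 log2 units, where the deviation of GAS5 itself was 0.49. For MALAT1 the nearest was SNORA26, at 0.69, then ATP2A1-AS1 and ENSAP2, both at 0.85, beside a deviation of 1.31 of MALAT1 itself. For NEAT1 they were MAPK14 at 0.63, CD164 at 0.66 and PLA2G15 at 0.72, beside 1.08 of NEAT1 itself. No gene lay as near to MALAT1 or NEAT1 as MRPL20 lay to GAS5. Spread within groups (SD 1.27 for MALAT1, 1.18 for NEAT1 and 0.05 for GAS5) itself enlarges these distances. They therefore cannot show whether MALAT1 and NEAT1 share their pattern with fewer genes.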

How the data were processed

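RNA was sequenced from 9 A549 libraries, 3 per group, grouped by the sample labels. The deposited values are FPKM per feature that the authors computed with StringTie 1.3.3b, and other steps are not given in the sources used here. Where 1 reference gene had several rows (54 genes) its FPKM was added up, and 25125 of 56252 rows without a reference gene were left out. A gene was kept if 3 or more libraries reached 0.1 FPKM. The test was limma (version 3.58.1, R 4.3.3) after log2 with a pseudocount of 0.1 (1 fit of 3 groups, trend in eBayes, Benjamini-Hochberg). The script was tested on simulated data. Coordinates and transcripts came from GENCODE 29, in which 32477 of 33058 gene identifiers had identical coordinates. Reads were recovered from FPKM steps, of which at least 98.1% of those worth 1 to 6 reads were close to whole numbers. Of all values, 83.7% to 85.3% were whole within 0.05, so larger read numbers are estimates. Single-gene permutation tests were exact. The members and gene lists were chosen with earlier results of these data known. Named genes were all members, tested neighbors, up to 4 called genes per list with the largest changes and a mean FPKM of at least 1, and the 3 nearest patterns for MALAT1, NEAT1 and GAS5, and a few genes that this rule names are not reported here. Alternatives were other pseudocounts, filters, scalings, thresholds and fits, and each library left out.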

Additional observations from a re-analysis of the deposited data

Results flagged for a closer look

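NORAD was flagged because its effects under the 2 siRNAs differed in a direct test, lower with siCyclin K#1 in 3 of 3 libraries and higher with siCyclin K#2 in 3 of 3 libraries, by -1.68 on the log2 scale (limma adjusted p = 6.1e-08). SNHG12 was flagged for the same reason, with a difference of -0.394 between the siRNAs (limma adjusted p = 0.022), although neither of its differences from scrambled siRNA was called.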

How the results depend on the processing

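Of 30 pairs of a member and a comparison, 21 kept direction and call in all 10 alternative fits and all 9 fits without a library. The 3-fold rule with p under 0.01 unadjusted gave 981, 408 and 322 genes for siCyclin K#1, siCyclin K#2 and their difference, and a fold change over 1.5 at an adjusted p under 0.05 gave 5814, 3707 and 2767, where the threshold used here gave 9434, 7352 and 6189. Members called were then 0, 0 and 1 under the first rule and 4, 3 and 1 under the second, in place of 4, 4 and 4. Leaving out 1 library gave 8584 to 9324, 6471 to 7248 and 5161 to 6005 genes and 4 to 5, 4 and 3 to 5 members. The only reversal under another setting was EPB41L4A-AS1 with siCyclin K#2, -0.00651 after quantile normalization. Without single libraries it ranged from -0.106 to 0.255, SNHG8 with siCyclin K#2 from -0.241 to 0.0361, and the differences between siRNAs from -0.856 to 0.801 for MALAT1 and from -0.964 to 0.337 for NEAT1, and the cause was not tested. The difference of SNHG5 was called after median-ratio rescaling (-0.144, limma adjusted p = 0.0366) and that of EPB41L4A-AS1 in a fit of those 2 groups (limma adjusted p = 0.0421). Replicate numbers did not pair the libraries (correlations of -0.071 to 0.038 over 9 pairs), and a replicate block gave 9061, 6946 and 5679 genes and 4, 4 and 4 members. Depth limits mainly low genes, and 6 members share rows with small RNAs.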
